A study of Mus musculus with 9 samples.

Results

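The transporter genes described here are 10 genes that carry ions, water and solutes across the choroid plexus, the epithelium that makes cerebrospinal fluid. They are Aqp1, Slc12a2, Slc4a2, Slc4a5, Slc4a10, Slc13a4, Slc2a12, Slc29a4, Slc6a20a and Slc6a13, of 24891 genes measured. They were chosen by name, as known choroid plexus transporters, with their levels on these arrays already known, so their values are given as a description with no test. All 10 passed the filter on dim probes (a signal well above background on 3 or more arrays), with 13 probes among them. Aqp1 and Slc6a20a would not have passed it without the hippocampal Sox2-GFP arrays, where they were high.

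The data are 9 single-colour Agilent arrays of mouse cells in 3 groups, with replicates A, B and C in every group. Hippocampal DCX-DsRed cells came from mice that make the red protein DsRed under the Dcx promoter, and Dcx encodes doublecortin, a microtubule protein of newborn neurons. Hippocampal Sox2-GFP cells and Sox2-GFP cells of the SVZ (the germinal zone beside the lateral ventricle) came from mice that make the green protein GFP under the Sox2 promoter, active in neural stem cells and several kinds of glia. Mice were 6 to 8 weeks old, with no treatment named in the labels, tissue of 10 dissections was pooled for an experiment, and the RNA of 1000 sorted cells was amplified. Nothing in the labels tells whether A, B and C of a group were separate pools, so errors and p-values measure only how much these samples spread, and that spread may be technical. In sorted bulk samples, more cells of a type and more RNA per cell cannot be told apart.

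Choroid plexus epithelium secretes fluid by moving sodium, chloride and bicarbonate from blood to ventricle, and water follows. Sodium leaves through the sodium pump of the apical, ventricle-facing membrane, chloride and bicarbonate enter through exchangers and cotransporters of the Slc4 family, and the water channel aquaporin 1 lies in the apical membrane. Other carriers of the same cells take up or remove sulfate, sugars, amino acids and monoamines. The epithelium lies within the ventricles, next to both the hippocampus and the SVZ.

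The level of a gene is log2 of the array's processed signal minus the 75th percentile of that array, so a gene at the 75th percentile has level 0 and each step of 1 doubles the signal. Levels are compared between groups for 1 gene at a time, never between genes, since each probe has its own brightness. Errors of levels are SDs over 3 arrays, and errors of differences are standard errors (SE) from the limma fit to all 9 arrays.

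Several libraries bear on what follows. Hippocampal Sox2-GFP replicate C stood apart from its group: across genes its level correlated with replicates A and B at 0.816 and 0.783, against 0.919 between A and B, and genes are not independent replicates. A and B shared a slide that C was not on, and pairs of SVZ arrays correlated at 0.82 to 0.84. Its summed astrocyte markers were 4.81 (linear level, with the array's 75th percentile as 1) against 65.7 and 78.9 in A and B, and its oligodendrocyte markers 1.58 against 30.5 and 36.7. The reporters' own genes did not follow the labels. Sox2 was 1.29, 1.70 and 1.70 in DCX-DsRed arrays and 0.94, 0.92 and -0.95 in hippocampal Sox2-GFP arrays, lower on every one of the latter, with an adjusted p of 0.335 in limma. Dcx was -1.31, -0.79 and 1.28 in DCX-DsRed arrays, -0.20, -0.76 and -2.88 in hippocampal Sox2-GFP arrays and 2.56, 3.04 and -2.37 in SVZ arrays, and these groups overlapped. The summed oligodendrocyte markers were 211 to 269 in DCX-DsRed arrays. Groups are therefore named by their labels alone. Results are given with and without replicate C.

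Of the 10 genes, 7 were higher on all 3 hippocampal Sox2-GFP arrays than on all 3 DCX-DsRed arrays, a pattern that 11.6% of all genes showed, and 7 were higher than on all 3 SVZ arrays (8.21% of all genes). The same 7 were above all 6 other arrays, as were 4.28% of all genes: Aqp1, Slc4a5, Slc4a10, Slc13a4, Slc2a12, Slc29a4 and Slc6a20a. These shares describe genes picked with their levels known and are read no further. The median difference over the 10 genes was 3.79 for hippocampal Sox2-GFP minus DCX-DsRed, against -0.07 over all genes. For SVZ minus hippocampal Sox2-GFP it was -3.56, against 0.07 over all genes. Both comparisons share the hippocampal Sox2-GFP arrays, so they are not independent of each other. Slc4a2, Slc12a2 and Slc6a13 did not follow this pattern.

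**Figure D1:**
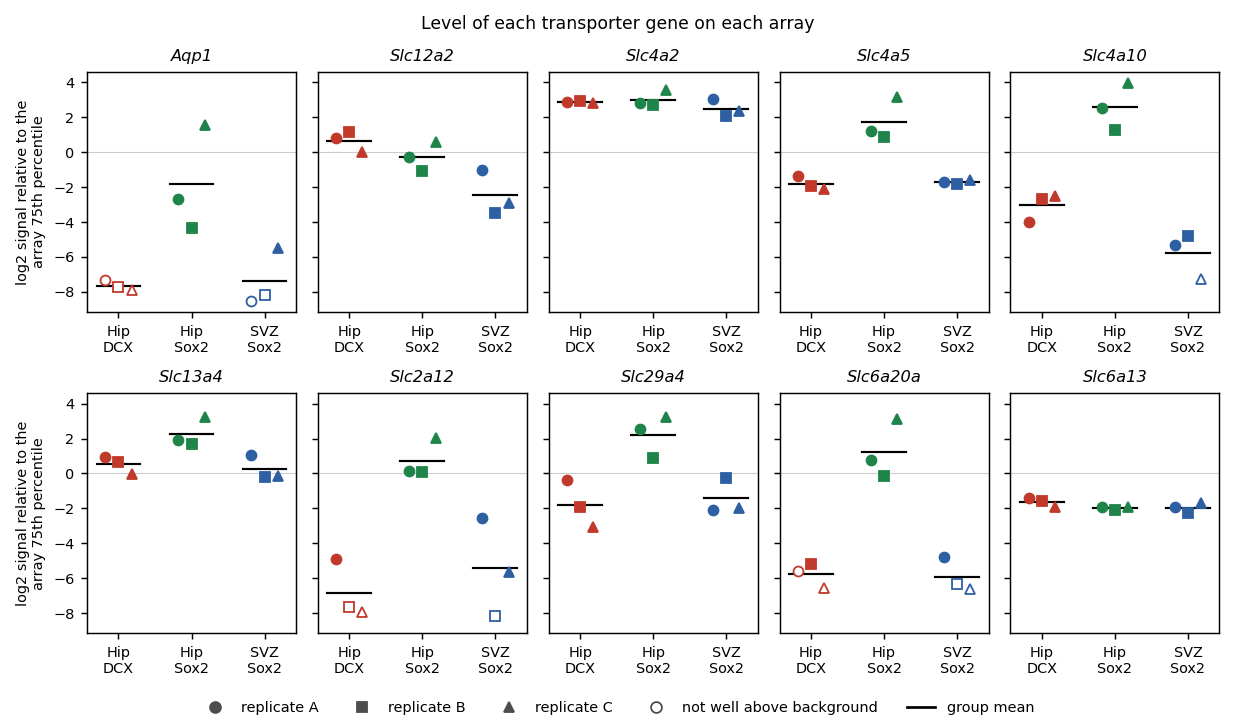
Level of each of the 10 transporter genes (vertical axis, log2 signal minus the 75th percentile of its array) on the 9 arrays, by group (Hip DCX, hippocampal DCX-DsRed; Hip Sox2, hippocampal Sox2-GFP; SVZ Sox2, SVZ Sox2-GFP). Symbols mark the replicate, open symbols arrays where the probe was not well above background, and bars the group mean of 3 arrays; in 7 panels the 3 hippocampal Sox2-GFP arrays lie above all 6 others, and replicate C is the highest of its group in 9 of 10.

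The stretches of DNA just before the start of these genes are shown because 7 of the genes were high on the same arrays. RefSeq promoter windows (GRCm38.p6) were given for 9 of the 10 genes, 13 windows in all, and the 250 bases before the start are printed 5′ to 3′ on the gene's own strand. Capitals mark matches to GGGCGG, the GC box bound by Sp factors, and to TAATCC, the core of the site of Otx homeobox factors, searched on both strands. GGGCGG or its reverse complement lay in 6 of the 13 windows, of 6 genes, and in 32.7% of all 32851 mouse windows of that length. TAATCC lay in 1 of the 13 windows, of Slc6a13, and in 6.25% of all windows. A match is a description of letters and no site of binding. The windows of Slc4a5 (chr6:83237125-83237374, plus strand), Slc6a20a (chr9:123678833-123679082, minus strand), Slc13a4 (chr6:35308127-35308376, minus strand), Aqp1 (chr6:55336049-55336298, plus strand), Slc2a12 (chr10:22644761-22645010, plus strand) and Slc6a13 (chr6:121300038-121300287, plus strand, the first of 3) read:
Slc4a5: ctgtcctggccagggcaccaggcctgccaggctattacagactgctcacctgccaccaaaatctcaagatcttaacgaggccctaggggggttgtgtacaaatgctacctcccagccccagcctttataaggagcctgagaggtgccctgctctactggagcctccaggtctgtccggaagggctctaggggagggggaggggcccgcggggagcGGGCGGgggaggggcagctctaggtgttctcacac
Slc6a20a: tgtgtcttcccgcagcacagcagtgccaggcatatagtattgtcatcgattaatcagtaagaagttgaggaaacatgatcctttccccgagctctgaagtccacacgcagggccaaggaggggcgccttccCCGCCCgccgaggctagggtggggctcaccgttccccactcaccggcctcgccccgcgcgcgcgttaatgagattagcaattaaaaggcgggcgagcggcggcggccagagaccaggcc
Slc13a4: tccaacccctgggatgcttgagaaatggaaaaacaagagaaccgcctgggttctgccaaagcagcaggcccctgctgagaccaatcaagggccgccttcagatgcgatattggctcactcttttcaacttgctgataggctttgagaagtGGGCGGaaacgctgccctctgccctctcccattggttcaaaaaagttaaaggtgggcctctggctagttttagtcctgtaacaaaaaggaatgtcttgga
Aqp1: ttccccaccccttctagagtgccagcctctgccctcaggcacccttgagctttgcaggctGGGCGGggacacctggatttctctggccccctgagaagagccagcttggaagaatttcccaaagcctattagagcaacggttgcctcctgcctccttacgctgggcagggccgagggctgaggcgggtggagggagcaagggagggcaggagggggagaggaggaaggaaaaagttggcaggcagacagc
Slc2a12: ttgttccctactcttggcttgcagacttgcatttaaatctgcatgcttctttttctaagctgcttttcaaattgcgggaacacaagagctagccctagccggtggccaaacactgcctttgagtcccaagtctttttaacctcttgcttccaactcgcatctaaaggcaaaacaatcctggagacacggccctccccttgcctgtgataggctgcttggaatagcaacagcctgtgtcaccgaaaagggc
Slc6a13: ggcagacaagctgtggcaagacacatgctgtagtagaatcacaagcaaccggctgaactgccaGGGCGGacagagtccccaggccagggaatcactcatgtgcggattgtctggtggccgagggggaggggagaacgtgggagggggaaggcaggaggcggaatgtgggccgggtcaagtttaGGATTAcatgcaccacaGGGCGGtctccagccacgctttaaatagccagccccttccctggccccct

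The first 4 of these windows each hold 1 GC box and belong to genes of the 7. Slc2a12, which is among the 7 as well, holds neither motif, nor does either window of Slc4a10. The window of Slc29a4 (chr5:142701851-142702100, plus strand) holds 9 GC boxes. Slc6a13, whose level did not follow the pattern, has the TAATCC match and 2 GC boxes in the window shown. The bases are 48.8% G or C in the window of Slc2a12, 50.4% in that of Slc13a4 and 60.8% to 62.8% in the other 4 shown. Neither motif divides the 7 genes from the others.

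Water and the apical ion entry route come first. Aqp1, the water channel of the apical membrane, was -7.33, -7.70 and -7.92 on the DCX-DsRed arrays, where its probe was not well above background. On the hippocampal Sox2-GFP arrays it was -2.66, -4.36 and 1.54, well above background on all 3. On the SVZ arrays it was -8.53, -8.17 and -5.48, well above background on replicate C only. Hippocampal Sox2-GFP arrays were thus above all others, and they spread more widely (SD 3.04) than for any other of the 10 genes. The measured difference from DCX-DsRed was 5.82 (SE 1.42), 4.14 without replicate C and 7.09 without replicate B of hippocampal Sox2-GFP. Because the DCX-DsRed side has only a bound, Aqp1 was at least 13.7-fold higher in hippocampal Sox2-GFP cells, taking for the dim side the lowest signal well above background on each array. Without replicate C this bound was 4.26-fold. Against the SVZ, where 1 of 3 arrays was well above background, the difference of signals was -5.57 (SE 1.42), and it was -3.88 without hippocampal Sox2-GFP replicate C.

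Slc12a2 encodes the sodium-potassium-chloride cotransporter, which lies in the apical membrane of the epithelium and is also found in many other cells. It was 0.80, 1.13 and 0.04 in DCX-DsRed cells, -0.27, -1.08 and 0.60 in hippocampal Sox2-GFP cells and -1.0, -3.51 and -2.90 in SVZ cells. Hippocampal Sox2-GFP arrays overlapped both other groups. The difference of SVZ minus hippocampal Sox2-GFP was -2.22 (SE 0.71), or -3.59 with the slide as a block in the fit. That of hippocampal Sox2-GFP minus DCX-DsRed was -0.91 (SE 0.71), a sign that is not stable, since it was 0.98 with that block and 0.55 on slide 3, where all 3 groups are found. All SVZ arrays were below all DCX-DsRed arrays, by 3.13 on average (SE 0.71).

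Bicarbonate and chloride carriers of the Slc4 family did not move alike. Slc4a2, the basolateral chloride-bicarbonate exchanger, was 2.87, 2.92 and 2.84 in DCX-DsRed cells, 2.80, 2.70 and 3.56 in hippocampal Sox2-GFP cells and 3.04, 2.07 and 2.35 in SVZ cells. The 3 groups overlapped, and the difference of 0.14 (SE 0.38) between hippocampal Sox2-GFP and DCX-DsRed turned to -0.13 without hippocampal Sox2-GFP replicate C.

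Slc4a5, an electrogenic sodium-bicarbonate cotransporter of the apical membrane, was -1.38, -1.94 and -2.10 in DCX-DsRed cells and -1.68, -1.83 and -1.61 in SVZ cells. In hippocampal Sox2-GFP cells it was 1.24, 0.87 and 3.16. The DCX-DsRed and SVZ arrays overlapped, and every hippocampal Sox2-GFP array lay above both. The difference from DCX-DsRed was 3.56 (SE 0.58), which is 11.8-fold, and that of SVZ from hippocampal Sox2-GFP was -3.46 (SE 0.58). Without replicate C these were 2.86 and -2.76. A second, dimmer probe of Slc4a5 gave larger differences of 5.95 and -5.85.

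Slc4a10, a sodium-coupled bicarbonate transporter of the basolateral membrane that neurons make too, was -3.99, -2.66 and -2.49 in DCX-DsRed cells and 2.52, 1.28 and 3.97 in hippocampal Sox2-GFP cells. In SVZ cells it was -5.34, -4.79 and -7.28, the last not well above background. On the brighter probe of the gene, used here, the 3 groups did not overlap, with SVZ cells lowest. Of the 10 genes, 2 had SVZ and DCX-DsRed arrays that did not overlap, Slc4a10 and Slc12a2, and both were lower in the SVZ; 21.1% of all genes did not overlap in either direction. The difference of Slc4a10 was 5.64 (SE 0.86), or 49.7-fold, for hippocampal Sox2-GFP minus DCX-DsRed and -8.40 (SE 0.86) for SVZ minus hippocampal Sox2-GFP. The second probe gave 3.64 and -4.32, so the direction of these differences was shared by both probes and the size was not. On that probe, well above background on all 9 arrays, the SVZ arrays (-2.83, -2.94 and -5.83) overlapped the DCX-DsRed arrays (-3.92, -3.18 and -2.46). The separation of SVZ from DCX-DsRed cells for Slc4a10 thus rests on 1 probe.

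Carriers of sulfate and sugar follow. Slc13a4, a sodium-sulfate cotransporter, was 0.95, 0.65 and -0.04 in DCX-DsRed cells, 1.94, 1.68 and 3.21 in hippocampal Sox2-GFP cells and 1.07, -0.20 and -0.15 in SVZ cells. Its difference was the smallest of the 7 genes, 1.75 (SE 0.55) from DCX-DsRed and -2.03 (SE 0.55) for SVZ minus hippocampal Sox2-GFP. Its arrays nevertheless separated fully, and it followed the mean of the other 9 genes most closely, with a correlation of 0.97 over the 9 arrays.

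Slc2a12, a glucose transporter, was -4.90, -7.67 and -7.94 in DCX-DsRed cells, the last pair not well above background. It was 0.12, 0.06 and 2.02 in hippocampal Sox2-GFP cells. In SVZ cells it was -2.54, -8.15 and -5.65, with replicate B not well above background. Every hippocampal Sox2-GFP array lay above the rest, and the dim groups scattered more (SD 1.68 and 2.81) than the bright one (SD 1.12). The difference from DCX-DsRed was 7.57 (SE 1.42), and that of SVZ from hippocampal Sox2-GFP was -6.18 (SE 1.42), or -7.64 without SVZ replicate A and -4.83 without SVZ replicate B.

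Carriers of monoamines, amino acids and GABA close the set. Slc29a4, the plasma membrane monoamine transporter, was -0.40, -1.94 and -3.05 in DCX-DsRed cells, 2.55, 0.91 and 3.22 in hippocampal Sox2-GFP cells and -2.09, -0.24 and -1.96 in SVZ cells. It was well above background on all 9 arrays, and the hippocampal Sox2-GFP arrays lay above the rest. The differences were 4.02 (SE 0.87), which is 16.2-fold, and -3.66 (SE 0.87), or 3.53 and -3.16 without replicate C.

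Slc6a20a encodes a transporter of proline and other imino acids, and its probe is filed on the array under the older name Xtrp3s1. It was -5.60, -5.17 and -6.58 in DCX-DsRed cells and -4.79, -6.34 and -6.64 in SVZ cells, with 1 array of each group well above background. In hippocampal Sox2-GFP cells it was 0.76, -0.13 and 3.09. The gap between the lowest hippocampal Sox2-GFP array and the highest other array was wide, and the differences were 7.03 (SE 0.87) and -7.17 (SE 0.87), falling in size to 6.10 and -6.24 without replicate C.

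The array's probe called Slc6a20 belongs by its RefSeq accession to Slc6a20b, a neighbouring paralogue. Slc6a20b was -3.52, -1.19 and -1.96 in DCX-DsRed cells, -0.20, -1.57 and -0.53 in hippocampal Sox2-GFP cells and -3.55, -1.56 and -4.55 in SVZ cells. Its groups overlapped, and its differences of 1.46 (SE 0.87) and -2.45 (SE 0.87) were smaller than those of Slc6a20a. Whether either probe also binds the other transcript was not tested.

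Slc6a13 encodes a transporter of GABA and taurine that is also made by the meninges. It was -1.41, -1.58 and -1.91 in DCX-DsRed cells, -1.91, -2.10 and -1.94 in hippocampal Sox2-GFP cells and -1.93, -2.25 and -1.69 in SVZ cells. All 9 values lay close together. The difference of -0.35 (SE 0.30) from DCX-DsRed was about its own error. On this probe the hippocampal Sox2-GFP arrays were just below the DCX-DsRed arrays, as they were for 13.1% of all genes. SVZ arrays overlapped the hippocampal Sox2-GFP arrays, replicate B being the lowest of all 9, and the difference of SVZ from hippocampal Sox2-GFP was 0.03 (SE 0.30). The second probe gave -0.53 and 0.24. On that probe hippocampal Sox2-GFP (replicate C at -2.37) and DCX-DsRed arrays (replicate C at -2.39) overlapped. Slc6a13 was the 1 gene of the set whose profile did not rise and fall with the mean of the others (correlation -0.10 over 9 arrays). For the rest this correlation ran from 0.50 for Slc12a2 to 0.97. The 9 arrays lay on 3 slides not balanced over the groups, and a technical part in these correlations was not tested.

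**Figure D2:**
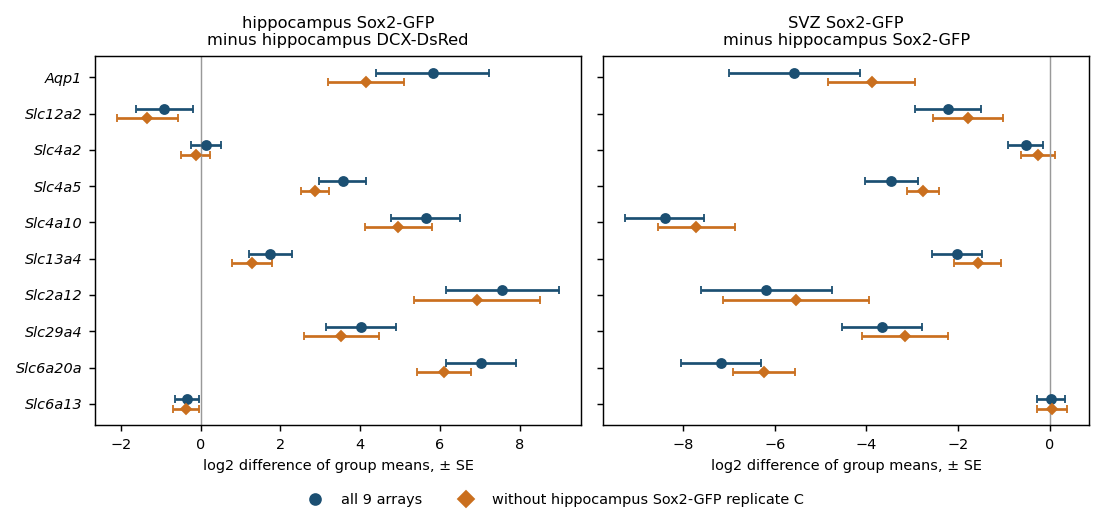
Difference of group means on the log2 scale (horizontal axis, ± SE) for each transporter gene, from all 9 arrays (circles) and without hippocampal Sox2-GFP replicate C (diamonds). Leaving that array out shrank the differences of the 7 genes, to between 1.29 and 6.93 on the left, and turned no direction among them.

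Replicate C of hippocampal Sox2-GFP was the highest of its group for 9 of the 10 genes, against 29.1% of all genes. Without it the median difference over the 10 genes was 3.19 from DCX-DsRed, and -2.96 for SVZ minus hippocampal Sox2-GFP. Over the 7 genes the differences then ran from 1.29 to 6.93, and from -1.57 to -7.71. The 3 slides were not balanced over the groups: slide 1 held DCX-DsRed replicates A and B and SVZ replicate A, slide 2 held hippocampal Sox2-GFP replicates A and B alone, and slide 3 held the other 4 arrays. A comparison within slides therefore rests on replicate C for the hippocampal Sox2-GFP side. With the slide as a block the differences of the 7 genes from DCX-DsRed were 3.38 to 10.86, and within slide 3, with 1 array of either group, 3.25 to 9.96. Those of SVZ minus hippocampal Sox2-GFP were -9.75 to -3.32 with the block and -10.01 to -3.38 within slide 3. Directions of the 7 genes were the same in each. Normexp background correction, which lifts dim signals, gave smaller differences for the genes with dim arrays: 2.81 for Aqp1, 4.91 for Slc6a20a and 4.54 for Slc2a12 against DCX-DsRed cells. For SVZ minus hippocampal Sox2-GFP cells it gave -2.70 for Aqp1, -4.96 for Slc6a20a, -4.03 for Slc2a12 and -6.17 for Slc4a10.

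Genes outside the set were tested on the same fit, with p-values adjusted over all 24891 genes by limma and a threshold of 0.05. Hippocampal Sox2-GFP cells had 1.76% of all genes higher and 1.42% lower than DCX-DsRed cells. SVZ cells had 0.0442% higher and 0.362% lower than hippocampal Sox2-GFP cells.

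Markers of choroid plexus epithelium other than Kl moved with the 7 genes. Kl was 0.57, 0.12 and -0.70 on the hippocampal Sox2-GFP arrays, lowest on replicate C, and overlapped the DCX-DsRed arrays (-0.53, -1.82 and -2.66). Limma called neither Kl nor F5 in either comparison. With Kl included, the summed linear level over the 13 of 14 measured markers was 101, 67.3 and 226 on the hippocampal Sox2-GFP arrays. It was 3.08 to 5.34 on the DCX-DsRed arrays and 3.14 to 4.58 on the SVZ arrays. Of the 13, limma called 11 higher in hippocampal Sox2-GFP than in DCX-DsRed cells, against 1.76% of all genes, and 8 lower in SVZ than in hippocampal Sox2-GFP cells, against 0.362%. Both counts include Lmx1a and Tmem72, which would not have passed the filter on dim probes without the hippocampal Sox2-GFP arrays. The markers were listed with earlier results of these arrays known, so the counts are a description and are read no further. The marker Lmx1a, a transcription factor of the dorsal midline, failed to rise well above background on all 6 DCX-DsRed and SVZ arrays. Ependymal markers (8 of 9 measured) summed to 11.6 to 21.5, 1.88 to 2.31 and 3.06 to 6.44 in the same order of groups. Among them, Tmem212 and Enkur failed to do so on all 3 DCX-DsRed arrays. Mural and meningeal markers (7 of 7) summed to 4.23 to 4.58, 1.48 to 2.28 and 3.02 to 4.43. Against DCX-DsRed, limma called 4 of the 8 ependymal markers higher and none lower, with a median difference of 4.53. Of the 7 mural and meningeal markers it called 2 higher and none lower, Vtn (3.81, SE 0.69) and Ogn (3.61, SE 0.62). For SVZ minus hippocampal Sox2-GFP, Vtn and Ogn differed by -4.21 and -3.62, and limma called no marker of either list. These counts are likewise a description. Astrocyte markers (8 of 8) summed to 4.81 to 78.9 in hippocampal Sox2-GFP, 16.7 to 24.4 in DCX-DsRed and 72.7 to 154 in SVZ cells. The part of any of these cells in the transporter levels was not tested.

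**Figure D3:**
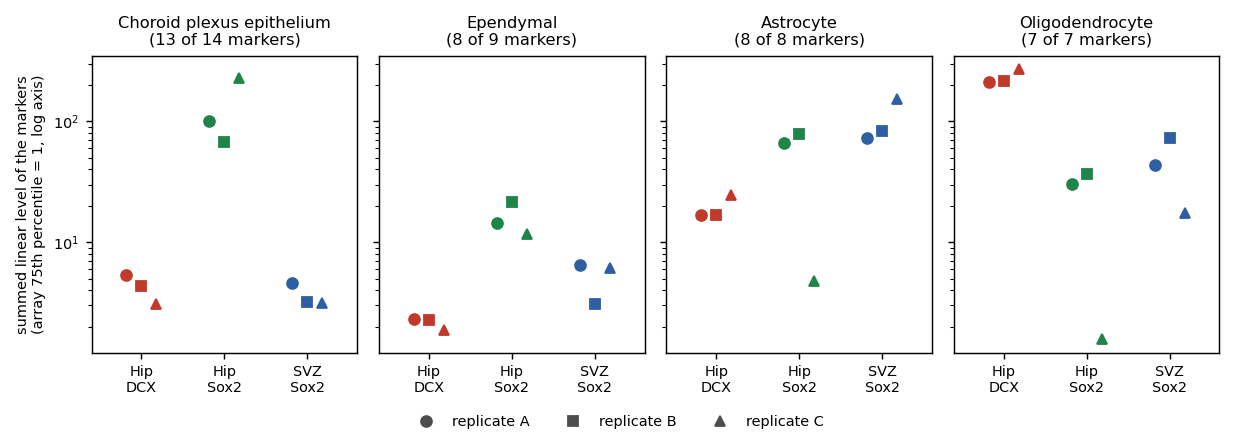
Summed linear level of the markers of 4 cell types on each array (vertical log axis, where 1 is the array's 75th percentile), by group and replicate. Choroid plexus markers are 67.3 to 226 on the hippocampal Sox2-GFP arrays and at most 5.34 elsewhere, while hippocampal Sox2-GFP replicate C has the lowest astrocyte and oligodendrocyte sums of all 9 arrays.

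Lists of other transport genes were tested in the same way. These lists were drawn up with earlier results of these arrays known, and the paralogues include some genes of both other lists. For counts at an unadjusted p under 0.05 the share over all genes was not taken, so they are read no further.

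Of 34 measured genes of ion and water transport in the choroid plexus, 6 rose in hippocampal Sox2-GFP against DCX-DsRed cells. None fell and 28 did not pass, against 1.76% higher and 1.42% lower over all genes. The list had 11 genes at an unadjusted p under 0.05 in either direction. The median difference over the list was 0.29, against -0.07 over all genes. Ezr, which ties apical microvilli to the actin skeleton, rose by 6.47 (SE 0.78, adjusted p = 0.00614 in limma). Its level was -5.33, -4.65 and -2.35 in DCX-DsRed cells and 1.84, 1.95 and 3.30 in hippocampal Sox2-GFP cells. Clic6, a chloride channel protein and itself one of the epithelial markers above, rose by 5.21 (SE 0.52, adjusted p = 0.00338 in limma), from -2.94, -3.04 and -3.53 to 1.90, 1.12 and 3.11. For both genes the 2 groups were far apart. Fxyd1, a regulator of the sodium pump, rose by 4.75 (SE 0.83, adjusted p = 0.0243 in limma). The other 3 were the sodium pump subunit Atp1b1 (3.87), the potassium channel subunit Kcne2 (3.83, another of the markers) and the calcium pump Atp2b3 (3.44). The count of 6 was 5 without hippocampal Sox2-GFP replicate C, 3 without replicate A of that group and 2 without DCX-DsRed replicate A. Fxyd1 did not pass with the slide as a block (5.84, adjusted p = 0.0614 in limma) or on the 6 arrays of the comparison alone (adjusted p = 0.0544).

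In SVZ against hippocampal Sox2-GFP cells 2 genes of that list fell, none rose and 32 did not pass. Over all genes 0.362% fell and 0.0442% rose. The list had 8 genes at an unadjusted p under 0.05 and a median of -0.18. Atp2b3 fell by 4.08 (SE 0.53, adjusted p = 0.0221 in limma), from 0.80, -0.07 and 1.59 to -2.99, -3.35 and -3.56. Clic6 fell by 3.67 (SE 0.52, adjusted p = 0.0298 in limma). No SVZ array reached the lowest hippocampal Sox2-GFP array for either gene. Ezr was -0.04, 0.42 and 0.90 in SVZ cells, also below every hippocampal Sox2-GFP array. It was on average nearer to these than to the DCX-DsRed arrays, and its difference of -1.93 was not called (adjusted p = 0.429 in limma). The 2 calls were both lost without DCX-DsRed replicate A, hippocampal Sox2-GFP replicate A or any 1 SVZ array, and the count was 1 without DCX-DsRed replicate B or C. On the 6 arrays of the comparison alone neither passed (adjusted p = 0.0848 for Atp2b3 and 0.148 for Clic6 in limma), nor did Clic6 with median subtraction (0.0759).

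Of 39 measured genes of solute transport, 3 rose in hippocampal Sox2-GFP against DCX-DsRed cells, none fell and 36 did not pass. Over all genes 1.76% rose and 1.42% fell. The list had 14 genes at an unadjusted p under 0.05 and a median of 0.75. Slco1c1, a carrier of thyroid hormone, rose by 4.63 (SE 0.97, adjusted p = 0.045 in limma). Its level in SVZ cells (2.34, 2.42 and 3.21) was close to that in hippocampal Sox2-GFP cells (2.56, 2.32 and 4.10). Slc31a1, the copper importer, rose by 4.52 (SE 0.78, adjusted p = 0.0237 in limma), and the SVZ arrays, at -2.89, -2.45 and -3.05, lay near the DCX-DsRed arrays at -3.02, -3.62 and -1.29. Folr1, the folate receptor of the epithelium and one of its markers, rose by 3.31 (SE 0.66, adjusted p = 0.0376 in limma), from 0.03, -0.36 and -0.09 to 2.95, 1.85 and 4.69. All 3 calls were lost without DCX-DsRed replicate A, DCX-DsRed replicate B or hippocampal Sox2-GFP replicate A, and the count was 1 without SVZ replicate B and 2 without hippocampal Sox2-GFP replicate C. Slco1c1 did not pass with the slide as a block (4.43, adjusted p = 0.0691 in limma), and with median subtraction neither it (adjusted p = 0.0592) nor Folr1 (adjusted p = 0.0655) passed. In SVZ against hippocampal Sox2-GFP cells limma called 0 of the 39, and over all genes 0.362% lower and 0.0442% higher. The 39 had 8 at an unadjusted p under 0.05 and a median of -0.46. The smallest p there was that of Slc31a1, at -4.67 (SE 0.78, adjusted p = 0.0597 in limma), and 1 gene was called without hippocampal Sox2-GFP replicate B.

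The 58 measured paralogues are the other genes of the Slc2a, Slc4a, Slc6a, Slc12a, Slc13a, Slc29a and Aqp families. Of these 1 rose in hippocampal Sox2-GFP against DCX-DsRed cells and 1 fell in SVZ against hippocampal Sox2-GFP cells, with medians of -0.14 and 0.24 over the list. At an unadjusted p under 0.05, in either direction, there were 10 of the 58 in the first comparison and 5 in the second. Over all genes limma called 1.76% higher in the first comparison and 0.362% lower in the second. The count of 1 in 58 in the first is thus near the share of all genes. Both calls were of the same gene, Slc6a12, which carries betaine and GABA. Slc6a12 was -1.72, -1.56 and -1.98 in DCX-DsRed cells, 0.41, 0.15 and 0.17 in hippocampal Sox2-GFP cells and -1.99, -1.91 and -2.64 in SVZ cells. It rose by 2.00 (SE 0.32, adjusted p = 0.0174 in limma) and fell by 2.43 (SE 0.32, adjusted p = 0.0234 in limma). Unlike 9 of the 10 transporter genes, it was not highest on replicate C. The count of 1 in the first comparison became 0 without replicate A or B of DCX-DsRed or of hippocampal Sox2-GFP, and 2 without hippocampal Sox2-GFP replicate C or SVZ replicate B. In the second it became 0 without replicate A or B of any group or SVZ replicate C.

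**Figure D4:**
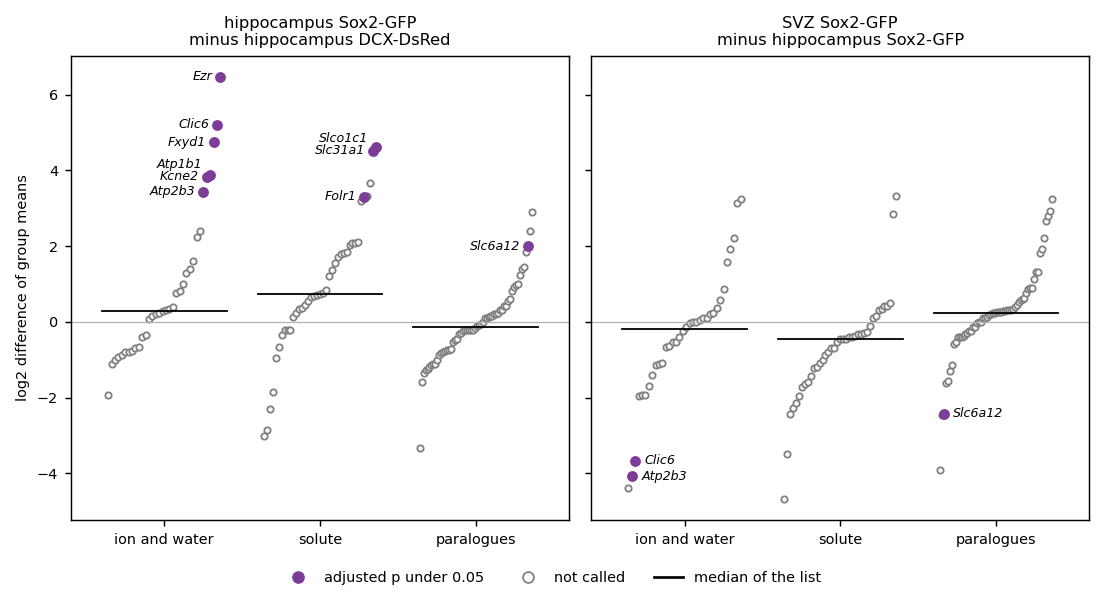
Difference of group means on the log2 scale (vertical axis) for each gene of the ion and water list (34), the solute list (39) and the paralogues (58), ordered by size within a list. Filled and named points had an adjusted p under 0.05 in limma, and bars mark the list median; 6, 3 and 1 genes are filled on the left and 2, 0 and 1 on the right.

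The 10 genes outside the set whose profile was most like the mean of the members, each scaled to mean 0 and SD 1 over the 9 arrays, had correlations of 0.967 to 0.992. They were Selenbp2 (0.992), Selenbp1 (0.982), Majin (0.982), Cdkn1c (0.977), Ctnnal1 (0.976), F5 (0.974), Sbspon (0.973), Wdr86 (0.972), Atp5md (0.972) and Prr32 (0.967). F5, a coagulation factor, is one of the choroid plexus markers. Cdkn1c, an inhibitor of the cell cycle, was -0.71, -0.59 and -0.64 in DCX-DsRed cells, 1.22, 0.30 and 2.65 in hippocampal Sox2-GFP cells and -0.59, -1.95 and -1.34 in SVZ cells. Selenbp1 and Selenbp2 are close copies, and whether their probes tell them apart was not tested. The choice leans on hippocampal Sox2-GFP replicate C: without it, 1 of these 10 was again among the 10 most alike, and without SVZ replicate B, 3 were.

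**Figure D5:**
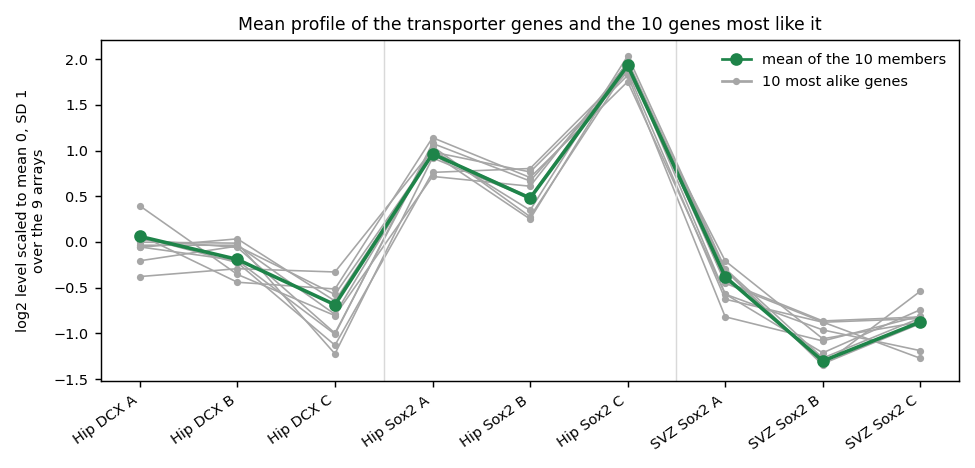
Mean profile of the 10 transporter genes (thick line) and of the 10 genes most like it (thin lines), as log2 levels scaled to mean 0 and SD 1 over the 9 arrays (vertical axis), by array. All lines peak on hippocampal Sox2-GFP replicate C and are higher on the 3 hippocampal Sox2-GFP arrays than on the 3 SVZ arrays.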

How the data were processed

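Members and lists were chosen with earlier results of these data known. The deposited files are scanner outputs of single arrays (Agilent design 014868, 1 colour). Per the file headers, Agilent Feature Extraction 9.5.1.1 had made the processed signal, an intensity, from the mean intensity of each spot by subtracting a fitted spatial surface and correcting a multiplicative trend, with surrogates for 4.7% to 9.8% of spots. The deposited intensity was not normalized between arrays. The files also hold flags of other kinds, and per the file headers these mark spots well above background, outliers and saturated spots. Limma is named, without a version, in the submitters' processing notes. Spots well above background made up 80.5% to 88.6% of an array, and none was saturated. The number of arrays limits the precision.

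Control spots and flagged outlier spots were left out, and spots of a probe were averaged. Log2 intensity minus the array's 75th percentile was used, of probes well above background on at least 3 arrays. The brightest probe stood for a gene. Of 41174 probes, 22951 were named by RefSeq accession and 3109 through an older symbol. Slc4a5 was found under C330016K18Rik. Differences come from limma 3.58.1 in R 4.3.3 (lmFit and eBayes, 6 degrees of freedom left), with p-values adjusted by Benjamini and Hochberg's method over 24891 genes, after a test on simulated data. Named outside the members were up to 3 called genes per list and direction with the largest difference (or the gene of smallest p), the 10 most alike genes, and the markers. Atp1b1, Kcne2, Atp2b3 in its first mention, Ezr in the SVZ, Cdkn1c, F5, Kl, Vtn and Ogn were singled out after their values were seen. Samples were not paired by the letters A, B and C in the main fit. Same-letter deviations from group means correlated between -0.04 and 0.02, which cannot tell whether same-letter samples shared an experiment. Alternatives were another background correction, normalization, filter, probe choice, slide or replicate block and leaving out each array. Using the Slc6a20b probe without Slc4a5, the other probe of a gene, and the Aqp1 bound without replicate C were added after seeing the data.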

Additional observations from a re-analysis of the deposited data

How the results depend on the processing

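The median difference over the 10 transporter genes kept its direction under all 21 alternatives in both comparisons, and leaving out 1 array gave 3.19 to 4.34 and -4.11 to -2.96. It moved most with probes well above background on all 9 arrays (1.75 and -2.22, where 7 members are left), the slide as a block (5.22 and -4.87), slide 3 alone (5.76 and -4.60), and the Slc6a20b probe without Slc4a5, added after seeing the data (1.75 and -2.45). Directions turned for Slc6a13, SVZ minus hippocampal Sox2-GFP (-0.06 with normexp, -0.09 with the slide block, -0.03 within slide 3, -0.03 without hippocampal Sox2-GFP replicate B, and -0.10 to 0.17 leaving out each array in turn), for Slc12a2 against DCX-DsRed (0.98 and 0.55 with the slide block and slide 3) and for Slc4a2 against DCX-DsRed (-0.13 without hippocampal Sox2-GFP replicate C, and up to 0.30 without replicate B). The cause was not tested.

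Counts of called list genes moved more. Against DCX-DsRed, in the order ion and water, solute, paralogue (6, 3 and 1), the slide block gave 7 for each of the last 2, slide 3 alone gave 0 of each, normexp gave 5 solute genes and 2 paralogues, and median subtraction gave 1 solute gene. Quantile normalization, the mean of all probes and the stricter filter each gave 2 paralogues. The 6 arrays of the comparison alone gave 0 solute genes. For SVZ minus hippocampal Sox2-GFP (2, 0 and 1), the slide block gave 10, 7 and 9, and slide 3 alone gave 0 ion and water genes and 0 paralogues. Median subtraction gave 1 ion and water gene. Normexp and quantile normalization each gave 1 solute gene and the mean of all probes 2. The 6 arrays alone gave 0 ion and water genes and 0 paralogues. With the letters as a replicate block, ion and water counts were 3 and 0, and the paralogue count of the second comparison was 0; the block changed no other count by over 1.5 times. Leaving out 1 array gave, in the order above, 2 to 7, 0 to 4 and 0 to 2 genes, then 0 to 3, 0 to 1 and 0 to 1. The other values, single genes mostly, numbered 586 that held, 64 that moved, 73 that lost a call, 4 that gained one and the 8 turned directions above. Slide 3 alone leaves 1 DCX-DsRed and 1 hippocampal Sox2-GFP array, which limma takes to vary like the SVZ pair. Directions of the 7 high genes held throughout. Dim probes limit Aqp1, Slc2a12 and Slc6a20a, several of whose low arrays were not well above background.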
